A study of Mus musculus with 12 samples.

Results

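The synaptic vesicle and SNARE genes described here encode the synaptotagmins (Syt), syntaxins (Stx), syntaxin-binding proteins (Stxbp), vesicle-associated membrane proteins (Vamp), SNAP proteins (Snap), synapsins (Syn), SV2 glycoproteins (Sv2), complexins (Cplx), Rab3 GTPases and synaptophysin (Syp). Every probe whose single annotated symbol named a numbered member of these families was taken, which gave 58 of the 15081 genes with a symbol on the array and 63 of its 21738 probes. By general knowledge, 25 genes (27 probes) were placed in a neuronal class, whose products are known mainly from nerve terminals, and 20 genes (20 probes) in a ubiquitous class that serves membrane traffic in most cells. The other 13 genes (16 probes), known from both settings or from immune, epithelial, muscle or gland cells, formed a mixed class. Snap91, which encodes the clathrin assembly protein AP180 and is no SNARE, was included because its symbol fits.

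SNARE proteins fuse a vesicle with its target membrane. A vesicle SNARE such as a Vamp protein zips together with target SNAREs, a syntaxin and a Snap25-type protein, and proteins of the Munc18 type, encoded by Stxbp genes, hold or guide the syntaxin. At the nerve terminal synaptotagmin senses calcium and complexin binds the assembled complex, while Rab3, synapsin, SV2 and synaptophysin are proteins of the synaptic vesicle. Neural stem cells carry the general fusion machinery of the Golgi, endosomes and plasma membrane, and the terminal-specific set is best known from differentiated neurons.

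RNA came from cultured mouse neurospheres, which are suspended balls of dividing neural stem cells and their progeny. They were started from cortex of gestational day 12.5, in medium that held no serum and was supplemented with the growth factors basic FGF and EGF and with LIF. The 12 arrays formed 4 groups of 3: controls in growth medium only at 24 h, controls at 108 h, and cultures labelled prominin at 24 h and at 108 h. Prominin cultures were given an adenovirus expressing CD133/R-prominin1, a membrane glycoprotein used as a stem cell marker. The series' design speaks of GFP or prominin neurospheres while the treatment text gives controls no virus, so effects of the virus and of prominin cannot be told apart. For the 24 h prominin samples the treatment text also says 108 h, and the titles were followed. The neurospheres' strain and passage were not stated in the sources used here, and nothing says that replicates were separate cultures, so the p-values measure the spread between these arrays, which may be technical.

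On each array neurosphere RNA carried Cy5 and a shared RNA of whole C57/Bl6 embryos of gestational day 12 carried Cy3. Values are log2 ratios, likely of neurosphere to embryo: the design lists the neurospheres as the first channel, and 8 of 11 tested probes of a neural stem and radial glia list were higher than the median probe (limma adjusted p under 0.05), beside 30.4% of all tested probes. Each array had its own median subtracted, taken over the 4532 probes that no array lacked, so 0 stands for the median probe and a value is a gene's ratio relative to that probe. Such ratios compare a gene with itself in the embryo and do not rank genes by transcript amount. In bulk RNA, fewer cells of a type and less RNA per cell cannot be told apart.

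The arrays differed in how many probes they measured, 10404 to 14465 at 24 h and 15944 to 16598 at 108 h, since exact zeros and a top code of 16.61 were treated as missing. Array medians before centring ran from −2.59 to −0.84, and arrays correlated at 0.604 to 0.783 within groups and 0.552 to 0.781 between them. Markers of neural cells were also read. Some came from the list used above for the direction of the ratios, so they are no separate check of neural identity. Sox2 stood at 3.82 ± 0.63 (SD, n = 12), the radial glial gene Fabp7 at 3.66 ± 0.49 and the glial filament gene Gfap at 8.56 ± 0.88, while the Notch target Hes1 was below the median probe (−1.51 ± 1.80, n = 9). Nes (0.34 ± 0.85, n = 12) and Hes5 (0.27 ± 2.26, n = 8) of the same list did not differ from the median probe (limma adjusted p = 0.285 and 0.718). The probe of Prom1 itself read 1.72 and 0.66 on control and −1.62 and −0.45 on prominin arrays at 24 h, which runs against the labels. At 108 h it read −2.51, −2.33 and −4.34 on control and −0.11 and −0.85 on prominin arrays. Neither difference passed (limma adjusted p = 0.998 and 0.717), and the comparisons below are therefore between arrays labelled prominin and control.

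The ubiquitous genes were measured more often than the neuronal and mixed ones, and the neuronal genes about as often as all probes. A value was present in 88.3% of the ubiquitous class's probe and array combinations, in 68.2% of the neuronal and 63.0% of the mixed ones, and in 68.1% over all probes of the table. Of the values present, 21.7% in the neuronal, 18.2% in the mixed and 6.13% in the ubiquitous class were exact small whole-number ratios or their inverses, a mark of dim spots, against 13.7% over all probes. The top code filled 14 neuronal and 8 mixed entries and 0 ubiquitous ones, and 20 of these 22 were at 24 h. Its share of 4.32% in the neuronal and 4.17% in the mixed class lay near the 3.66% over all probes, where 92.9% of such entries were also at 24 h. Coverage was lower at 24 h than at 108 h in both classes, at 61.7 and 74.7% in the neuronal and 82.5 and 94.2% in the ubiquitous class, and likewise over all probes (60.8 and 75.3%).

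At least 2 values in every group were present for 34 member probes of 33 genes, and only these entered the fit: 11 of 27 neuronal, 16 of 20 ubiquitous and 7 of 16 mixed probes. The requirement selects against rarely measured genes, so the tested neuronal members do not stand for the class. Outside the fit were the neuronal genes Syt2, Syt3, Syt4, Syt5, Syt9, Syt10, Syt12, Sv2a, Sv2b, Sv2c, Syn2, Syn3, Rab3c and Vamp1 (both probes) and a second probe of Syt6. These 16 probes were measured on 2 to 9 arrays, and 35.4% of their values carried the dim mark, against 35.6% for the 9 untested mixed probes and 2.86% for the 4 untested ubiquitous probes of Snap29, Stx3, Vamp4 and Vamp7. Syt2, a close relative of Syt1 that also triggers fast release, was measured on 2 arrays only, at 1.76 and 1.40. On 1 control array of 24 h, Syt8, Syt10, Syt17 and Vamp1 all read 3.04, the value that a raw ratio of 2 took there, so equal numbers at dim spots are no sign of equal expression. Means over the present centred values of untested probes ran from −3.34 (Rab3d, 5 arrays) to 2.98 (Syt4, 4 arrays), with 22 of 29 above 0. Centring raised every value, since array medians of −2.59 to −0.84 were subtracted. The share above 0 over all untested probes was not counted. Vamp4, a SNARE of the trans-Golgi network, was below 0 on all 10 arrays that measured it (mean −1.99 ± 1.09, SD).

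Taken over all 12 arrays, member genes spread as widely around the median probe as other genes did. Of the 34 tested probes 9 lay higher than the median probe (26.5%) and 7 lower (20.6%) at a limma adjusted p under 0.05, beside backgrounds of 30.4% and 25.5% over the 9155 probes tested. Their median was 0.24, and that of all tested probes 0.23. The shares were thus no larger than the background, and the set as a whole did not stand out in either direction. Single genes did, as the plot of all tested members shows. Without centring, 4 member probes were higher and 20 lower. The balance of directions thus rests on the centring, which removed −1.60 from the average level. Most of the 9155 tested probes were also called without centring, and their split by direction was not counted. These counts therefore do not set the members apart from other genes. Uncentred values also carry any offset of dye or scaling, so they are not plain levels against the embryo. Of the probes called higher with centring, Snap23, Stx11 and Rab3b did not pass without it, and Stxbp3 and Snap91 changed sign.

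**Figure D1:**
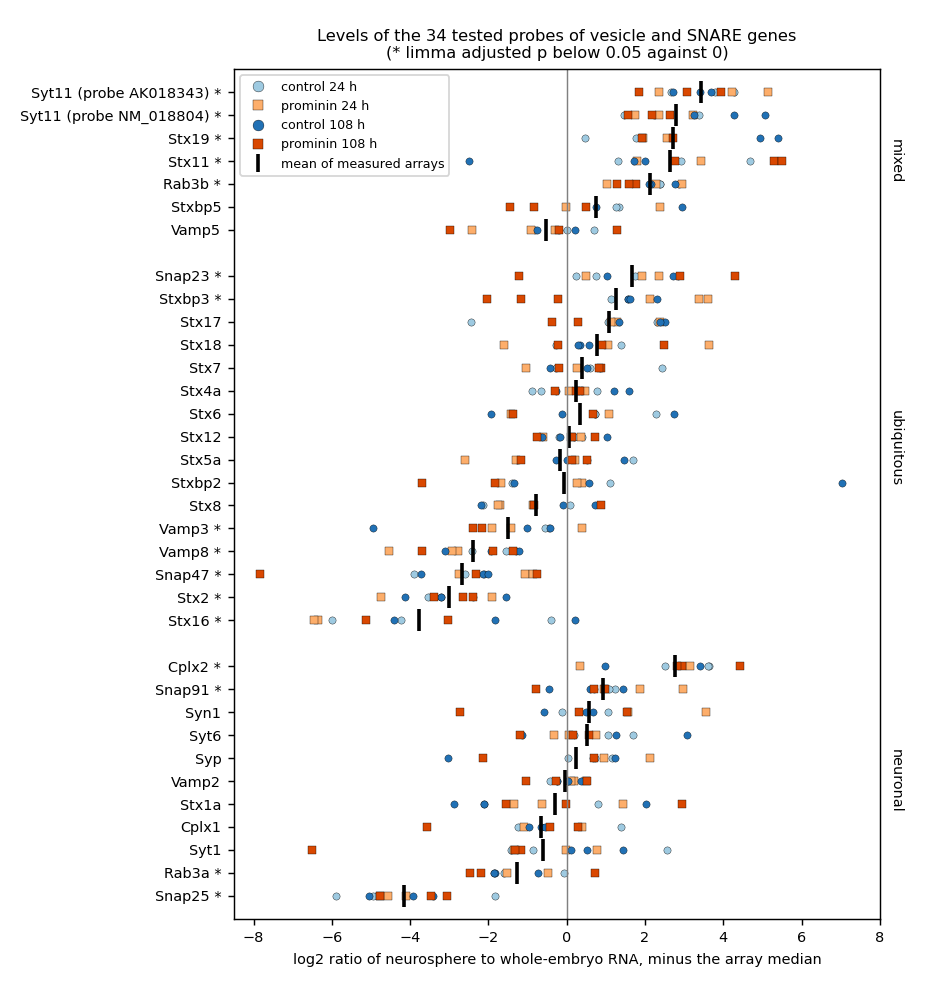
Centred log2 ratio (x axis) of each tested member probe (y axis, by class), with 1 point per array coloured by group and a black line at the mean of the measured arrays. Asterisks mark the 16 probes that differed from 0 at a limma adjusted p under 0.05, from Snap25 near −4 to Syt11 above 3.

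Among the target SNAREs, 3 of 16 tested probes were higher and 4 lower, no larger shares than the backgrounds of 30.4% and 25.5%. Snap25, which encodes the plasma membrane SNARE of transmitter release, had the lowest value of the tested members. It read −1.84, −4.94 and −5.90 in controls and −4.76, −4.11 and −4.57 in prominin cultures at 24 h, then −3.93, −5.06 and −3.41 in controls and −4.78, −3.48 and −3.06 in prominin cultures at 108 h. All 12 arrays were thus below 0 and the groups overlapped, with a level of −4.15 ± 0.34 (mean of the 4 group means ± SE; adjusted p = 1.96e-06). Snap23, its counterpart in most cells, was above 0 on 11 of 12 arrays and had a level of 1.67 ± 0.43 (adjusted p = 0.00664), although 1 prominin array of 108 h read −1.23 and the uncentred level was 0.07 (adjusted p = 0.898). Snap47, another widely expressed relative, was below 0 on all 12 arrays (−2.67 ± 0.52, adjusted p = 0.00116), with 1 prominin array of 108 h at −7.82.

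The syntaxins of the plasma membrane did not share a direction. Stx1a, which works with Snap25 at the terminal, was scattered around 0 (−0.34 ± 0.57, from −2.88 to 2.96) and did not pass (adjusted p = 0.629). Stx2, a plasma membrane syntaxin of many cells, was below 0 on all 11 measured arrays (−3.04 ± 0.33, adjusted p = 3.01e-05), while Stx4a, the partner of Stxbp3, stood at 0.24 ± 0.23. The epithelial syntaxin gene Stx19 (2.72 ± 0.29, n = 8 arrays) and Stx11, known from immune cells (2.63 ± 0.50, n = 11), were higher, with adjusted p = 0.000167 and 0.00134. Their uncentred levels were 1.07, which passed, and 1.05, which did not, and with both codes kept as values neither passed (0.86 and 1.07). Of the other leukocyte markers, Ptprc lay at 1.71 ± 0.52 (adjusted p = 0.0165) and Aif1 at −0.32 ± 0.38, and the part of such cells in the Stx11 value was not tested.

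Of the syntaxins of internal membranes only Stx16 passed. Stx16 of the trans-Golgi network was lower (−4.01 ± 0.60, n = 10 arrays, adjusted p = 0.000417), but ranged from −6.47 to 0.21. The endosomal genes Stx7 (0.34 ± 0.30), Stx8 (−0.74 ± 0.37) and Stx12 (0.05 ± 0.22), the Golgi genes Stx5a (−0.17 ± 0.33) and Stx6 (0.24 ± 0.49), Stx18 of the endoplasmic reticulum (0.76 ± 0.45) and the autophagosomal Stx17 (0.98 ± 0.40, adjusted p = 0.0573) did not pass. Stx12 was the steadiest of these, with an SD of 0.55 over 12 arrays.

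Of 4 tested vesicle SNARE probes 0 were higher and 2 lower, beside 30.4% and 25.5% of all tested probes. Vamp2, synaptobrevin-2 of synaptic vesicles, was the steadiest tested member of all: it read 0.04, −0.43 and −0.26 in controls and 0.20, 0.49 and 0.11 in prominin cultures at 24 h, and 0.37, −0.26 and 0.04 in controls and −1.04, −0.28 and 0.51 in prominin cultures at 108 h. The groups overlapped around 0, with a mean of −0.04 ± 0.44 (SD, n = 12). The endosomal SNARE genes Vamp3 (−1.48 ± 0.45, adjusted p = 0.0205) and Vamp8 (−2.39 ± 0.28, adjusted p = 3.17e-05) were lower, Vamp8 on all 12 arrays. Vamp5, first known from muscle, stood at −0.53 ± 0.35 and did not pass. A second, untested Vamp5 probe averaged 1.42 ± 1.72 (SD, n = 5 arrays) and lay 1.80 ± 2.06 above the tested one on the same arrays.

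Among the genes of syntaxin-binding proteins, Stxbp3 (Munc18-3, the partner of syntaxin-4) was higher (1.27 ± 0.25, adjusted p = 0.00161). Its uncentred level was −0.30, and its values by group and culture time are described below. Stxbp5 (tomosyn, which inhibits SNARE assembly) stood at 0.93 ± 0.38 (adjusted p = 0.0682) and Stxbp2 (Munc18-2) at −0.29 ± 0.74, with a range of −3.69 to 7.04.

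Of 17 synaptotagmin probes only 4 could be tested. Both probes of Syt11, a family member of brain and other tissues that does not bind calcium, were above 0 on all 12 arrays. Probe AK018343 had a level of 3.42 ± 0.29 (adjusted p = 2.63e-06) and probe NM_018804 one of 2.78 ± 0.25 (adjusted p = 4.32e-06). They differed by 0.64 ± 1.42 on the same arrays (SD, n = 12), and differed in how the groups compared at 108 h. Syt1, the main calcium sensor of fast release, averaged −0.61 ± 2.24 (SD, n = 12) and did not pass (adjusted p = 0.32). Its values were 2.56, −1.44 and −0.85 in controls and −1.36, 0.78 and −0.01 in prominin cultures at 24 h, and 0.51, 1.43 and 0.12 in controls and −6.51, −1.17 and −1.32 in prominin cultures at 108 h. Of the latter, 1 array alone lay more than 5 units below the rest. Syt6 stood at 0.51 ± 0.34, and its second, untested probe averaged 2.34 ± 1.68 (SD, n = 6 arrays).

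Genes of the vesicle and its cofactors also split. Cplx2 was above 0 on all 10 measured arrays (2.64 ± 0.38, adjusted p = 0.000296), with an uncentred level of 1.03 that still passed, and Cplx1 did not pass (−0.56 ± 0.43). Rab3b, the Rab3 of neurons and endocrine cells, was above 0 on all 12 arrays (2.13 ± 0.21, adjusted p = 7.65e-06), and Rab3a, the main Rab3 of synaptic vesicles, below 0 on 10 of 11 (−1.24 ± 0.34, adjusted p = 0.0110). Synaptophysin (Syp, 0.27 ± 0.47) and synapsin 1 (Syn1, 0.74 ± 0.43) did not pass. Snap91 was higher (0.94 ± 0.26, adjusted p = 0.0102) but had an uncentred level of −0.66.

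The promoters of 47 of the 58 genes were found in a RefSeq table of the GRCm38.p6 build that holds 250 bases before to 50 bases after each start. Stretches of 2 are shown: Syn1, a terminal gene with a half-site of the RE1 element, which binds the REST repressor of neuronal genes, and Stxbp3, the gene of smallest p in most comparisons between groups. The half-site TTCAGCACC was present, on either strand, in 0.371% of all 32851 promoters of the table and in 1 of the 63 promoters of member genes, that of Syn1. The cyclic AMP response element TGACGTCA was present in 1.79% of all promoters and in those of Syn1 and Stxbp3. None of these matches overlapped another in Syn1 or Stxbp3. In the stretches below, on the minus strand and written 5′ to 3′, capitals mark the RE1 half-site in the first (chrX:20921106-20921168) and the response element in the second (chrX:20921034-20921113) and the third (chr3:108840567-108840646).
Syn1, RE1 half-site: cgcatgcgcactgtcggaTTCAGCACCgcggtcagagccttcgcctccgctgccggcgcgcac
Syn1, response element: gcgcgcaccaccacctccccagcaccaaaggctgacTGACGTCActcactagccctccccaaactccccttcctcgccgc
Stxbp3, response element: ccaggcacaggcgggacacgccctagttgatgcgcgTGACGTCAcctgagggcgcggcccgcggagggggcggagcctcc
The capitals begin 232, 159 and 108 bases before the start of transcription. The GC box GGGCGG was found in 41 of the 63 member promoters and in 35.7% of all promoters, the CCAAT box in 18 and 37.4%, and the TATA box TATAAA in 5 and 13.6%. By class, 16 of 19 neuronal, 13 of 18 ubiquitous and 8 of 10 mixed genes with a promoter in the table had a GC box. A match describes letters only and says nothing about binding in these cultures.

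The neuronal and the ubiquitous class were compared in their ratios. Their class medians over tested genes, taken on each array and averaged over 12 arrays, were 0.08 ± 0.58 (SD) and −0.19 ± 0.56. The difference of neuronal minus ubiquitous averaged 0.27 ± 0.94, ranged from −1.15 to 1.71 and was above 0 on 7 of 12 arrays. It was 0.29 ± 1.11 and 0.43 ± 0.76 in control and prominin cultures at 24 h, and −0.09 ± 0.76 and 0.45 ± 1.46 at 108 h (n = 3 each), so every group spanned both signs. The SD between single gene levels was 1.67 in both classes, and each ran from about −4 (Snap25 and Stx16) to above 1 (Cplx2 at 2.64 and Snap23 at 1.67). The sign of the class difference depended on which genes and codes were counted. It was −0.13 with only the presynaptic core genes in the neuronal class, −0.12 with mixed genes counted as ubiquitous and −0.21 without prominin 24 h replicate 2, but 1.06 ± 0.54 and above 0 on 12 of 12 arrays when exact zeros were kept as values. Exact zeros filled 89 of 324 entries of the neuronal class and 28 of 240 of the ubiquitous class. Array medians before centring were negative, so centring moves kept zeros above 0 on average. Keeping zeros also raised the number of tested member probes to 60. The mixed class stood at 2.03 ± 0.29 and was above 0 on all 12 arrays. Only 6 of its 13 genes were tested. Its height rests in part on the centring, which removed −1.60 from the average level.

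Within families, a gene of the nerve terminal was compared with a relative on the same array, which removes the array's own centring. The difference is one of ratios to the embryo and not of transcript amounts. Snap25 was below Snap23 on 12 of 12 arrays, by −5.82 ± 2.14 (SD). The gap was narrowest on prominin 108 h replicate 3 (−1.83) and widest on prominin 108 h replicate 1 (−9.08). Vamp2, by contrast, was above Vamp3 on all 10 arrays that measured both, by 1.42 ± 1.46, with 4 of these arrays at 0.503 or less. Stx1a exceeded Stx4a on 5 of 11 arrays (−0.65 ± 2.40), a difference well within its spread. Cplx1 was below Cplx2 on 9 of 9 arrays (−3.34 ± 1.94), and Syt1 below the mean of the Syt11 probes on 11 of 12 (−3.71 ± 1.92), the exception being control 24 h replicate 1 at 0.11. Both complexins belong to the neuronal class, and Syt11 to the mixed class, so only the first 3 pairs set a terminal gene against a widespread one. Those 3 did not share a direction. Of 12 pairs listed, 7 lacked a tested member.

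**Figure D2:**
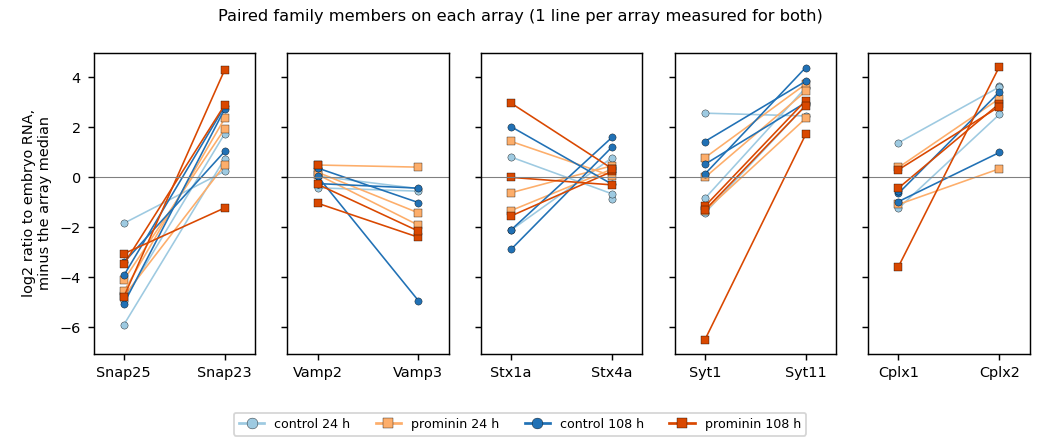
Centred log2 ratio (y axis) of the 2 genes of each pair (x axis), with 1 line per array that measured both and colours for the 4 groups. All lines rise from Snap25 to Snap23 and from Cplx1 to Cplx2 and fall from Vamp2 to Vamp3, while the lines of Stx1a and Stx4a cross.

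Other genes of the release machinery came from a list of 73 symbols. The median level of its 26 tested probes (25 genes) was 1.09, smaller than the shift that centring removed, and 14 probes were higher and 2 lower, beside 30.4% and 25.5% of all tested probes. The endophilin gene Sh3gl2 (4.66 ± 0.37), Snapin, whose product binds SNAP proteins (4.53 ± 0.20), the proton pump subunit gene Atp6v0a1 (2.71 ± 0.62) and the secretory carrier gene Scamp1 (2.21 ± 0.29) led (adjusted p = 2.95e-06, 3.25e-08, 0.00463 and 0.000109). Lower were the exocyst gene Exoc7 (−1.14 ± 0.37, adjusted p = 0.0271) and Bsn, which encodes the active zone scaffold bassoon (−0.84 ± 0.30, adjusted p = 0.0349). The 2 probes of Rph3a, which encodes a Rab3 effector, disagreed (−0.82 ± 0.34 and 1.27 ± 0.28). A list of Golgi and endosome SNARE genes outside the chosen families also held genes of the Munc18 type, such as Vps45. Its median was −0.79, with 3 of 13 probes higher and 5, Vps45 among them, lower, beside the same backgrounds. Ykt6 (2.62 ± 0.43, adjusted p = 0.000386), Vti1a and Bet1 were higher, and 1 probe of Sec22b was low (−2.68 ± 0.38, adjusted p = 0.000188) while the other did not pass (−0.45 ± 0.25).

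Markers of cells that could carry these transcripts were read beside them. The level counts of these short lists stand beside backgrounds of 30.4% higher and 25.5% lower over all tested probes. On the neuron list 3 of 9 tested genes were lower, Tubb3 (−4.21 ± 0.40, adjusted p = 1.12e-05), Map2 (−2.23 ± 0.22, adjusted p = 7.08e-06) and Dcx (−2.20 ± 0.33, adjusted p = 0.000278), and 1, the growth cone gene Gap43 (0.68 ± 0.17, adjusted p = 0.0065), was higher. Its median per array ran from −1.37 to −0.52 in controls and −1.84 to −0.62 in prominin cultures at 24 h, and from −1.31 to −0.24 and −2.03 to 0.14 at 108 h. The groups thus overlapped in their neuron markers. Of 4 neuroendocrine genes, which belong to dense-core vesicles, Scg2 (2.71 ± 0.26) and Scg3 (0.99 ± 0.37) were higher and Chga lower (−1.75 ± 0.47), with adjusted p = 1.16e-05, 0.0426 and 0.00956. The astrocyte list had 3 of 4 genes higher (median level 6.42) and the oligodendrocyte lineage list 3 of 4 (median 3.77) with Pdgfra lower. No gene of any of these lists passed in any comparison between groups. Their part in the values of the member genes was not tested.

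No member passed in any of the 7 comparisons between groups. In the whole table limma called 0% of probes for prominin against control at 24 h, at 108 h, over both times, for the interaction and for time in controls, 0.0218% for time in prominin cultures and 0.0546% for time over both cultures. With the spread between replicates as it is, the median SE of a member was about 1.04 at 24 h and 1.02 at 108 h. In data simulated with these spreads and missing values, 0% of probes shifted by 2 and 46% of those shifted by 4 on the log2 scale were recovered at 108 h. A fold of the size most members showed was thus not detectable in that simulation, and the members of smallest p are given as values. Of 70 differences named below, 39 moved by more than 1.5 times and 6 changed sign when some single array was left out. The comparisons share groups, so their values are not independent of each other.

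At 108 h, prominin minus control was negative for 25 of 34 members, beside 4566 of 9155 tested probes. The members' median was −0.36, against 0.00 over all tested probes. By class, 7 of 11 neuronal, 12 of 16 ubiquitous and 6 of 7 mixed probes were negative. An unadjusted p under 0.05 was reached by 7 members, 6 negative and 1 positive, beside 6.82% of all probes. The smallest belonged to Stxbp3. It read 2.31, 1.56 and 1.62 in controls and −2.04, −0.21 and −1.17 in prominin cultures, 2 groups that did not overlap, a difference of −2.97 ± 0.67 (SE; unadjusted p = 0.00113, limma adjusted p = 0.655). Across 10 omissions of 1 array the difference stayed between −3.43 and −2.52. Stx19 read 5.40 and 4.94 in controls and 1.92 and 2.73 in prominin cultures, with 1 array of each missing (−2.84 ± 0.83, adjusted p = 0.717). Its groups did not overlap either. Groups this small can lie apart without a true difference, here and below. These genes were named for their small p, and the share of all tested probes without overlap was not counted.

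Stx11 alone among the 7 was higher at 108 h in prominin cultures. It read 2.00, −2.49 and 1.71 in controls and 5.30, 5.51 and 2.77 in prominin cultures, without overlap (4.12 ± 1.34, adjusted p = 0.717), and the difference was 2.67 without control 108 h replicate 2. Syt11 by probe NM_018804 read 3.25, 4.27 and 5.07 in controls and 1.56, 2.19 and 2.65 in prominin cultures (−2.06 ± 0.72, adjusted p = 0.717), again without overlap. The other Syt11 probe did not show this, at −0.32 ± 0.83. The Syt1 difference of −3.68 ± 1.42 (adjusted p = 0.717) was −1.93 without prominin 108 h replicate 1, the array at −6.51. Stxbp5 (−2.45 ± 1.04, adjusted p = 0.725) and Stxbp2 (−4.85 ± 2.10, adjusted p = 0.725) completed the 7, and the Stxbp2 value rests on control 108 h replicate 1, at 7.04 beside 0.58 and −1.34. Without it the group means differed by −2.38. On the positive side Cplx2 (1.20 ± 1.07), Stx1a (1.46 ± 1.53), Stx18 (0.66 ± 1.20) and Stx8 (0.54 ± 1.05) followed. Without prominin 108 h replicate 3, Stx1a was at 0.21 and Cplx2 at 0.68, and without control 108 h replicate 2 Stx1a was at 2.96.

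**Figure D3:**
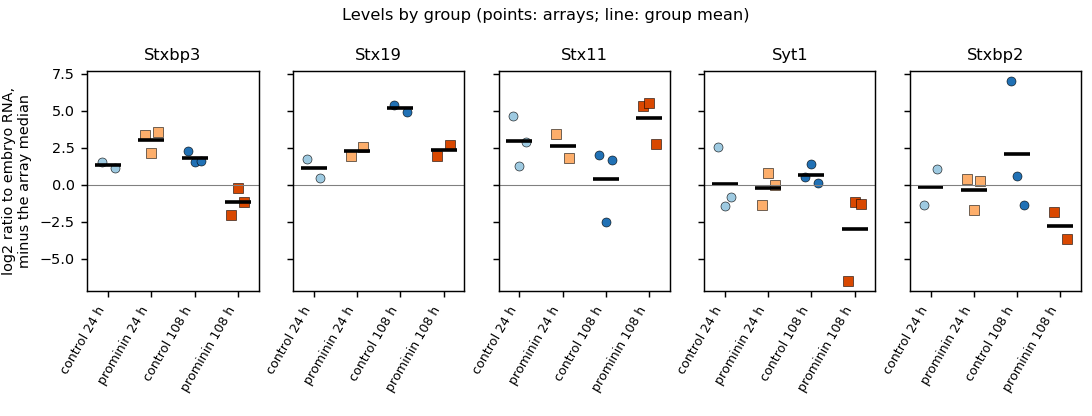
Centred log2 ratio (y axis) of 5 member genes in the 4 groups (x axis), with 1 point per measured array and a line at the group mean. The 3 prominin arrays of 108 h lie below all other arrays for Stxbp3, and single arrays set the group means of Syt1 (−6.51) and Stxbp2 (7.04).

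At 24 h the members' median difference was −0.19, against −0.10 over all tested probes, and 1 member reached an unadjusted p under 0.05 beside 4.58% of all probes. This was again Stxbp3, here with the opposite sign. It read 1.58 and 1.14 in controls, where 1 array held an exact zero, and 3.38, 2.14 and 3.61 in prominin cultures (1.69 ± 0.75, unadjusted p = 0.0465, adjusted p = 0.998). The 2 groups did not overlap, but 2 of the 3 prominin values carried the dim mark. Next on the positive side were Syn1 (2.10 ± 1.34), Stx19 (1.14 ± 0.83), Snap91 (0.92 ± 0.74) and Stx17 (1.29 ± 1.07). On the negative side stood Vamp8 (−1.65 ± 0.80), Stx16 (−2.87 ± 1.71), Stx5a (−1.53 ± 0.94), Stx7 (−1.31 ± 0.89) and Cplx2 (−1.51 ± 1.07).

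The difference between both prominin effects, tested as an interaction, was −4.65 ± 1.00 for Stxbp3 (unadjusted p = 0.000822, adjusted p = 0.805), −3.99 ± 1.17 for Stx19 and 4.48 ± 2.01 for Stx11, and 3 of 34 members reached an unadjusted p under 0.05 beside 5.95% of all probes. Further values were −2.14 ± 1.01 for Syt11 (NM_018804), −3.40 ± 1.60 for Stx17, −3.40 ± 2.01 for Syt1 (−1.65 without prominin 108 h replicate 1) and 2.71 ± 1.51 for Cplx2. Vamp8, Stx7 and Stx5a followed at 1.42, 1.49 and 0.96. Averaged over both times, prominin minus control reached an unadjusted p under 0.05 for 0 members beside 5.06% of all probes. The lowest values by p were Stx16 (−2.47 ± 1.21), Syt1 (−1.99 ± 1.01), Syt11 by NM_018804 (−0.99 ± 0.51), Stxbp2 (−2.53 ± 1.48) and Vamp8 (−0.94 ± 0.57). Positive values were led by Stx11 (1.88 ± 1.00), Syn1 (0.81 ± 0.86), Stx1a (0.97 ± 1.14), Snap91 (0.34 ± 0.52) and Stx18 (0.57 ± 0.90).

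With culture time the member of smallest p was Stxbp3 in prominin cultures. From the 24 h to the 108 h values given above it differed by −4.18 ± 0.67 (unadjusted p = 7.87e-05, adjusted p = 0.0888), with no overlap between groups, while in controls the difference was 0.47 ± 0.75. Without centring it passed (−5.25, adjusted p = 0.0401). Culture times also differed in the number of measured probes and in dim values, whose part was not tested. Also in prominin cultures, Syn1 read 3.55 and 1.57 at 24 h and 1.55, 0.32 and −2.72 at 108 h (−2.84 ± 1.22, adjusted p = 0.544). Snap91 read 2.96, 0.95 and 1.88 at 24 h and −0.79, 0.97 and 0.70 at 108 h (−1.64 ± 0.74, adjusted p = 0.563). The times overlapped for Snap91 and lay next to each other for Syn1, and 3 of 34 members reached an unadjusted p under 0.05 beside 8.81% of all probes. Without prominin 108 h replicate 3 the Syn1 difference was −1.63. Syt1 (−2.80 ± 1.42) and Stxbp5 (−1.78 ± 1.04) followed, with Syt1 at −1.04 without prominin 108 h replicate 1. Positive values were Cplx2 (1.66 ± 1.07), Stx8 (1.47 ± 1.05), Vamp8 (1.09 ± 0.80), Stx11 (1.91 ± 1.50) and Stx16 (2.32 ± 1.87).

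In controls the smallest p belonged to Stx19, which read 1.76 and 0.47 at 24 h and 5.40 and 4.94 at 108 h (4.06 ± 0.83, adjusted p = 0.437), with 1 array missing and 1 dim value at each time. Syt11 by NM_018804 read 2.24, 1.47 and 3.37 at 24 h (1.84 ± 0.72, adjusted p = 0.643), overlapping its 108 h values, and the other Syt11 probe differed by −0.30 ± 0.83. These were the 2 of 34 members with an unadjusted p under 0.05, beside 6.94% of all probes. Next were Stx4a (1.10 ± 0.66), Stx17 (1.77 ± 1.07) and Snap23 (1.29 ± 1.21). Negative values were those of Stx11 (−2.57 ± 1.34), Vamp3 (−1.62 ± 1.28), Cplx2 (−1.05 ± 1.07), Syp (−1.01 ± 1.18) and Stx6 (−1.01 ± 1.23).

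Over both cultures, 2 of 34 members reached an unadjusted p under 0.05 beside 9.7% of all probes: Stxbp3 (−1.85 ± 0.50, adjusted p = 0.272) and Stx19 (2.06 ± 0.58, adjusted p = 0.311). Each mean covers unlike groups: Stxbp3 was below 0 on the 3 prominin arrays of 108 h and above 0 on all 8 other measured arrays, and the 2 control values of 108 h of Stx19 lay above its 6 others. Snap91 (−1.06 ± 0.52), Syn1 (−1.55 ± 0.86), Syp (−1.64 ± 0.94) and Vamp3 (−1.46 ± 0.91) followed below 0, and Stx16 (1.92 ± 1.21), Syt11 by NM_018804 (0.77 ± 0.51), Stx8 (0.99 ± 0.75) and Snap23 (0.84 ± 0.86) above it. The terminal genes Snap25 and Vamp2 had differences near 0, with 0.40 ± 0.68 and −0.14 ± 0.39 for time over both cultures and 0.05 ± 0.68 and 0.08 ± 0.39 for prominin over both times.

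**Figure D4:**
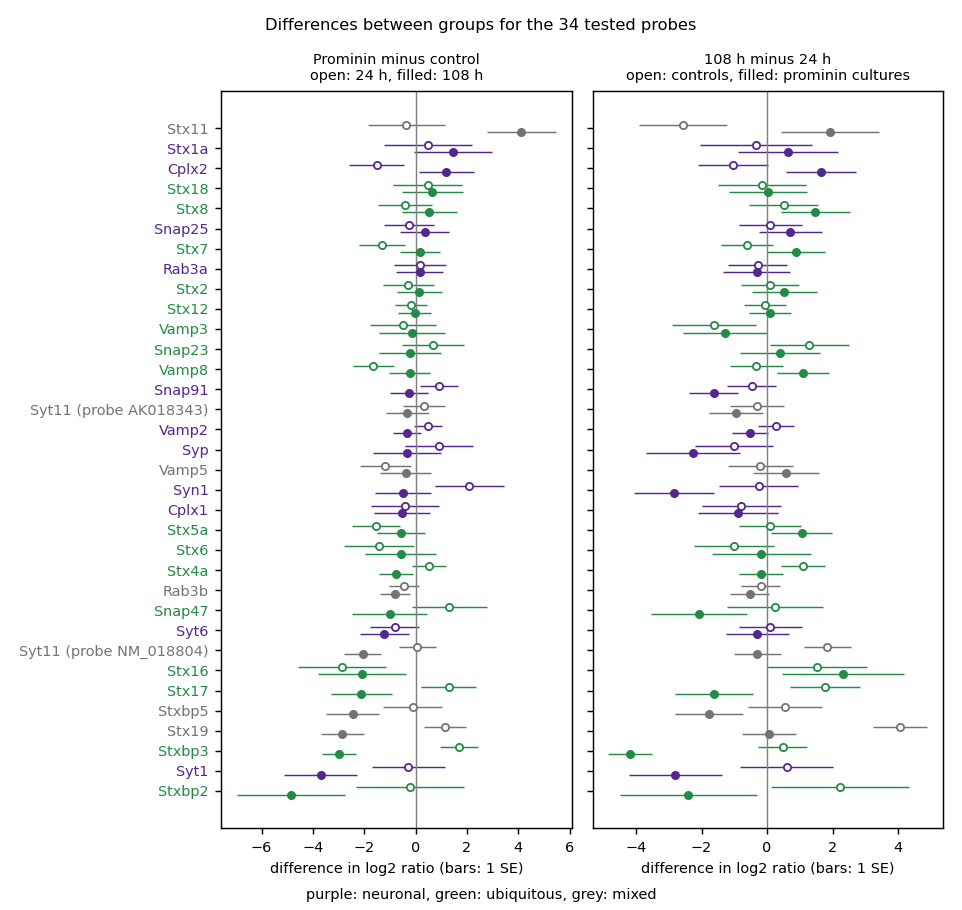
Differences in centred log2 ratio (x axis) for the 34 tested probes (y axis), with bars of 1 SE. Prominin minus control is on the left (open circles 24 h, filled 108 h) and 108 h minus 24 h on the right (open circles controls, filled prominin cultures), and no difference passed a limma adjusted p of 0.05.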

How the data were processed

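The deposited values are log2 ratios of 2-colour mouse oligonucleotide arrays, per the labels: total RNA was extracted with Trizol and RNeasy and labelled with 3DNA dendrimers, without a dye swap, so a dye effect cannot be told apart from a level. How the slides were scanned and normalized was not stated in the sources used here. Exact zeros and the code 16.61 were set to missing, and each array's median over 4532 probes, those with a value on every array, was subtracted. The number of arrays limits the precision.

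The 9155 probes with at least 2 values per group were fitted with limma 3.58.1 in R 4.3.3, with 1 mean per group and moderated variance. The fit gave 8 contrasts: the level (mean of the 4 group means against 0) and 7 differences. Benjamini-Hochberg adjustment ran over all probes of a contrast, with a threshold of 0.05. A dim value was a ratio, or its inverse, that is a whole number from 2 to 20 within 0.0006 on the log2 scale. The fit was tested on simulated data, where 83% of levels shifted by 2 were recovered.

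Symbols came from an old platform annotation, in which 16620 probes had 1 symbol, 113 several (not used) and 5005 none. The 58 genes, their classes and the gene lists were chosen with earlier results of these data known, and the promoter motifs after the values were seen, from more motifs than are given. For each difference the 5 members of smallest p in each direction are named, and all tested members for the level. For the release machinery list, up to 4 genes called in each direction are named, and Rph3a and the genes of other lists were chosen after their values were seen.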

Additional observations from a re-analysis of the deposited data

How the results depend on the processing

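The level called 16 members, a count that stayed within 1.5 times under 22 of 24 alternatives although not always for the same genes. Of the 16, 11 kept their call without centring, 14 centred on all measured probes, 13 with exact zeros kept and 9 with both codes kept. Centring on all measured probes, Stxbp3 (0.73, adjusted p = 0.0525) and Snap91 (0.38, adjusted p = 0.302) did not pass in limma. With both codes kept, Cplx2 (1.04), Stx11 (1.07), Stx19 (0.86), Snap23 (0.21) and Rab3b (0.67) did not pass (limma adjusted p from 0.0719 to 0.707). The exceptions were at least 3 values per group and exact zeros kept as values. The first tested fewer probes and called 8 of 15 members, beside 2797 of 4532 over all probes. The second called 28 of 60 members, beside 7615 of 20770 over all probes. Omitting 1 array gave 11 to 17 calls. Without variance moderation Vamp3 did not pass (limma adjusted p = 0.0536). The differences between groups called 0 members under all 24 alternatives, with 1 exception. Without centring, 108 h against 24 h in prominin cultures called 1 member, Stxbp3. Its limma adjusted p ran from 0.0401 to 0.344 over the 20 alternatives that tested it. With dim values missing it could not be tested. Over all probes the level called 5113 of 9155 in the main setting. Time over both cultures called 5 probes and at most 36, and time in prominin cultures 2 and at most 21. In the other 5 differences, which called 0 probes, keeping both codes gave up to 26 calls and other settings up to 2.

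Signs of levels near the median probe turned with the scaling. Without centring, Snap91 was −0.66, Stx12 −1.55, Stx17 −0.57, Stx18 −0.89, Stx4a −1.36, Stx6 −1.32, Stx7 −1.24, Stxbp3 −0.30, Stxbp5 −0.63, Syn1 −0.92, Syp −1.41 and Syt6 −1.09. With both codes kept, Snap91 was −0.52, Stx12 −1.41, Stx17 −0.25, Stx18 −0.62, Stx4a −1.22, Stx6 −0.87, Stx7 −0.97, Stxbp3 −0.13, Stxbp5 −0.51, Syn1 −0.76, Syp −1.02 and Syt6 −0.945. With exact zeros kept, Snap91 was −0.044, Stx12 −0.93, Stx18 −0.15, Stx4a −0.75, Stx6 −0.39, Stx7 −0.50, Stxbp5 −0.038, Syn1 −0.28, Syp −0.55 and Syt6 −0.47. Centred on all measured probes, Stx12 was −0.50, Stx4a −0.32, Stx6 −0.25, Stx7 −0.21, Syp −0.32 and Syt6 −0.044. Without both arrays of fewest measured probes, an alternative chosen after seeing the data, Stx12 was −0.020. The cause was not tested beyond the scaling itself.

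Differences that turned sign without centring were prominin minus control at 108 h for Stx18 (−0.42) and Stx8 (−0.49), and the interaction for Stx5a (−0.79), Stx7 (−0.37) and Vamp8 (−0.33). With both codes kept, the interaction was −0.24 for Stx5a and −0.30 for Stx7, and prominin minus control for Stx16 was 0.40 at 24 h and 0.016 over both times. With exact zeros kept the Stx16 values were 0.051 and 0.058. Omitting 1 array, the level ran from −0.069 to 0.15 for Stx12, −0.35 to 0.026 for Stx5a, −0.077 to 0.51 for Stx6, −0.91 to 0.14 for Stxbp2 and −0.14 to 0.057 for Vamp2. Likewise prominin minus control ran from −0.073 to 2.31 for Stx17 at 24 h, from −0.062 to 1.29 for Stx18 and −0.30 to 1.17 for Stx8 at 108 h, and from −0.077 to 1.23 for Stx18 over both times. Time in controls ran from −2.26 to 0.067 for Stx6 and −1.82 to 0.33 for Syp. Whether equal replicate numbers pair the arrays was not settled. Deviations from group means correlated at −0.067 to 0.122 for equal and −0.120 to 0.121 for unequal numbers. Of the equal-number pairs 3 of 18 lay above 0.1, and of the others 1 of 36. With the replicate number as a block, 16 members were called for the level and 0 for each difference, and Stxbp2 had a level of 0.42.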
